A study of Rattus norvegicus with 18 samples.

Results

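Retinoic acid is made from vitamin A and acts through nuclear receptors, and the genes described here make it, carry it or respond to it. The set holds 9 genes of the 14217 that the arrays name through a single gene symbol. They are Rbp4, Stra6, Aldh1a1, Aldh1a2, Aldh1a3, Crabp2, Rara, Rarb and Rxra. All 9 were found, each represented by the probe set with the highest mean over the 18 arrays. The set was chosen by pathway with earlier results of these data known, among them the day 7 difference of Aldh1a1 between treated and untreated grafts, so that difference is a description without a test.

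Hearts of adult male Wistar Furth rats (RT1.Au) were placed in the abdomen of ACI rats (RT1.Aa), a heterotopic allograft that differs from its host in class I transplantation antigens. Untreated recipients formed the control group. A second group received cyclosporine, a calcineurin inhibitor, by mouth at 10 mg/kg/day on days 0 to 2, a course described as below the therapeutic dose. The third group received the same course and, at transplantation, 1 mg/kg of the allochimeric class I peptide [a1h1/u]-RT1.Aa through the portal vein. Graft tissue and T cells were taken on days 1, 3 and 7, with 1 array for each tissue, treatment and day. All samples share the transplantation, and neither a syngeneic graft nor an ungrafted heart was analysed here. Whether the cyclosporine group had a portal injection of vehicle is not stated in the labels, so peptide and injection cannot be told apart. Every sample carries the strain label Wistar Furth, and the organ and host strain of the T cells are not settled by the labels.

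Retinol travels in plasma bound to retinol binding protein 4 (Rbp4) and can enter cells through the receptor Stra6. Inside the cell retinol is oxidised to retinaldehyde, and the retinaldehyde dehydrogenases of the Aldh1a family oxidise that irreversibly to retinoic acid. Crabp2 carries retinoic acid to the nucleus, where retinoic acid receptors (Rara, Rarb) paired with a retinoid X receptor (Rxra) bind DNA and switch target genes, and Cyp26 enzymes break retinoic acid down. In the heart this pathway is best known from development, in which the epicardium makes retinoic acid through Aldh1a2. In immune tissue, dendritic cells that make retinoic acid are known to steer T cells.

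The tissue labels held on their defining markers. All 11 cardiomyocyte markers measured were lower in T cells (median log2 difference -8.16), 11 of 12 T cell markers were higher (median 4.03) and 1, Thy1, was lower. The T cell samples also held B cell transcripts, with 5 of 5 markers higher than in heart. Their summed macrophage and monocyte marker intensity was 25470 to 41668, against 16671 to 63814 in the grafts. Their erythroid sum was 7884 to 27110, against 7301 to 23292 in the grafts. The T cell samples thus held transcripts of other blood cells, and a level given for them need not be that of T cells. The untreated day 1 T cell array stood apart, with a summed neutrophil marker intensity of 39873 against 1379 to 3663 in the other T cell arrays, and T cell day differences, tissue differences and tissue interactions that rest on it are given below with and without it. The 3' to 5' actin ratio, a measure of RNA integrity, ran from 1.84 to 2.44 in day 1 grafts, 1.64 to 1.87 on day 3 and 1.41 to 1.43 on day 7, whereas the GAPDH ratio lay between 1.495 and 1.649 in all grafts. No sample has a repeat, and precision is limited by how few arrays there are.

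Receptor pairs bind direct repeats of a short hexamer, and Rarb itself is a textbook retinoic acid target through such a repeat. The RefSeq promoters of rat build GRCr8 (250 bases before to 50 bases after each gene's start) were searched on both strands for AGGTCA as the consensus hexamer, AGTTCA as a known variant, GGGTCA as a further variant and lastly GGTTCA, and for direct repeats of any of these with a spacer of 5 bases. All 9 genes and 54 of 80 further pathway genes had a promoter sequence. The repeat occurred in 128 of 33469 promoters (0.382%), in 1 of the 9 genes, Rarb, and in 1 of the other pathway genes, Cyp26a1. The known Rarb repeat is made of GGTTCA and AGTTCA with this spacer, all part of the search, so finding it was set in advance. The Cyp26a1 repeat holds AGTTCA in each place, searched as a known variant, so it is no independent find either. Rarb and Cyp26a1 are shown because theirs are the only promoters among these genes that hold the repeat. Capitals mark the hexamers. In Rarb the repeat starts at base 25 of the transcribed part, on the strand of the gene, at chr15:11336410-11336439 (plus strand). In Cyp26a1 it lies on the opposite strand and starts 92 bases before the gene's start, at chr1:244883724-244883753 (plus strand).
Rarb: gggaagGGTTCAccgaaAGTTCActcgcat
Cyp26a1: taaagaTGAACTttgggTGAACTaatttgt
The 250 bases before the start of Aldh1a1, the gene whose level moved most in the grafts, lie at chr1:227537370-227537619 (plus strand). They hold 1 hexamer, on the opposite strand, 65 bases before the start, and no repeat. A hexamer occurred in 44.4% of all promoters.
Aldh1a1: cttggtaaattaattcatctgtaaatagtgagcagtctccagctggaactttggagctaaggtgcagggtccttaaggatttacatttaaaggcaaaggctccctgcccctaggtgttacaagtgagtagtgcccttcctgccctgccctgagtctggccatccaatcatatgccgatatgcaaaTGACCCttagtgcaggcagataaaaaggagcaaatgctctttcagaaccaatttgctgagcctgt

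The time course in the grafts asked how the pathway changed between days 1 and 7 after transplantation. Over this interval Aldh1a1, Aldh1a2, Rarb and Rxra fell, Aldh1a3 and Stra6 rose, and Rbp4, Crabp2 and Rara did not pass the test. Thus 6 of 9 genes were called at an adjusted p below 0.05 with limma, 2 higher and 4 lower. Among all 19737 probe sets tested, 64.7% were called in this comparison, 30.9% higher and 33.8% lower, so the share among the 9 genes is near the background and is no result about the pathway. Between days 3 and 7, 6 of 9 were called, 2 higher and 4 lower, beside a background of 56.4% (26.9% higher, 29.4% lower). Between days 1 and 3 only Aldh1a2 was called, beside a background of 27.5% (14.6% higher, 12.9% lower). Without the untreated arrays 2 of 9 were called in that early interval, and 0 of 9 when either treated group was left out. The share of all probe sets called in those smaller fits is not given, so these counts are no result about the 9 genes. Differences are on the scale of log2(intensity + 16), with the standard error (SE) of the fit, and each day difference is a mean of 3 differences within a treatment. Intensities are linear array signals and are compared only within a gene.

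**Figure D1:**
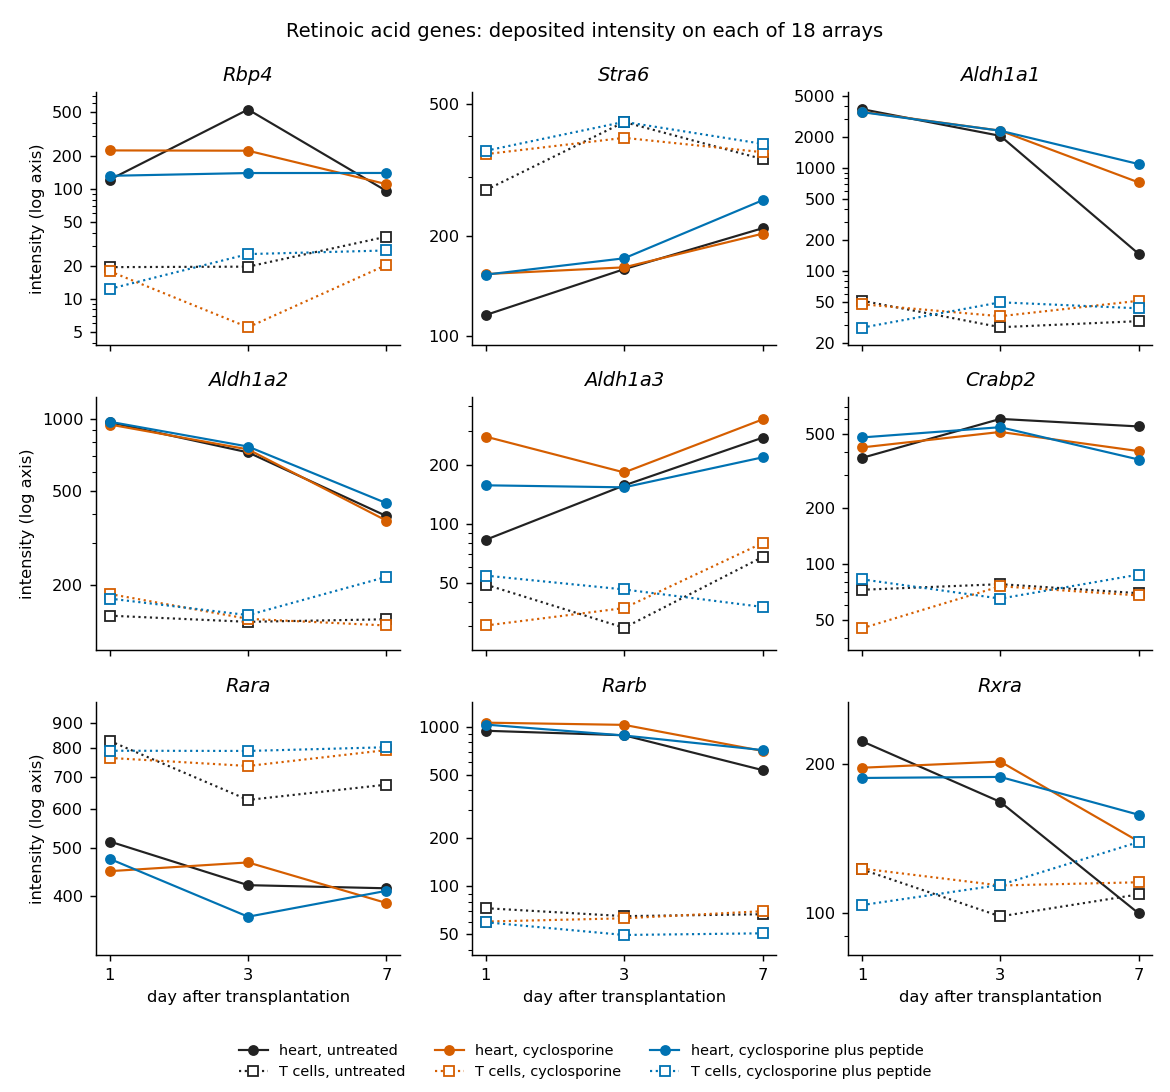
Deposited intensity (log axis) of each gene on days 1, 3 and 7, with filled circles for heart grafts and open squares for T cells, 1 array per point, coloured by treatment. Aldh1a1 fell from 3721 to 146 in untreated grafts but to 722 and 1089 in the treated grafts, and in T cells it lay between 28.0 and 51.2.

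Aldh1a1, the cytosolic retinaldehyde dehydrogenase, had the widest range of the 9 genes in the grafts. On day 1 its intensity was 3721 in the untreated graft, 3509 with cyclosporine and 3479 with the peptide added. On day 3 it was 2046, 2298 and 2295 in the same order. On day 7 it was 146, 722 and 1089. The 3 days did not overlap, and the untreated day 7 graft was the lowest of all 9 grafts. The fall from day 1 to day 7 was 25.5-fold without treatment, 4.86-fold with cyclosporine and 3.20-fold with the peptide added. The mean log2 difference between days 7 and 1 was -2.81 ± 0.49 (adjusted p = 0.00124) and that between days 7 and 3 was -2.13 ± 0.49 (adjusted p = 0.00655). The day 3 value was not called against day 1 in the full fit (-0.69 ± 0.49), though it was -0.60 (adjusted p = 0.0326) without the untreated arrays. Without the untreated arrays the day 7 against day 1 difference was -1.96 and was still called.

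Aldh1a2, the dehydrogenase of the epicardium in development, fell at each step and to a like degree in all 3 treatments. Its intensity was 972, 951 and 977 on day 1 (untreated, cyclosporine, cyclosporine plus peptide), 725, 747 and 768 on day 3, and 391, 374 and 443 on day 7. The spread within a day was much smaller than the step between days, and the days did not overlap. The difference between days 3 and 1 was -0.37 ± 0.07 (adjusted p = 0.00748), but this call was lost when either treated group was left out (adjusted p up to 0.0538). The differences to day 7 were -0.87 ± 0.07 from day 3 (adjusted p = 2.93e-05) and -1.23 ± 0.07 from day 1 (adjusted p = 3.76e-06). Of 9 epicardial and mesothelial markers tested, 7 rose from day 1 to day 3 (median 0.69), beside 14.6% of all probe sets. Between days 1 and 7, 2 were higher and 5 lower, beside 30.9% and 33.8% of all probe sets. The summed intensity of the 10 such markers measured was 2221 to 2808 on day 1, 4279 to 4880 on day 3 and 2016 to 2400 on day 7. Wt1, a defining gene of that layer, was at 557 to 589 on day 1, 754 to 784 on day 3 and 466 to 526 on day 7. The part of these cells in the Aldh1a2 values was not tested.

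Aldh1a3, the third dehydrogenase, moved the other way. It was at 83.1, 280 and 158 on day 1, 158, 183 and 154 on day 3, and 276, 342 and 219 on day 7. The day 1 values were spread widely and the cyclosporine graft of day 1 overlapped the range of day 7. The rise from day 1 to day 7 was 0.76 ± 0.25 (adjusted p = 0.0279), and it was not called without the untreated arrays (0.36) or without the arrays with the peptide added. The difference between days 7 and 3 was 0.69 ± 0.25 (adjusted p = 0.0459), a call lost when either treated group was left out. On day 1, adipocyte genes followed the same order over the grafts, with Adipoq (adiponectin) at 177, 576 and 317 and Plin1 (perilipin 1) at 108, 233 and 155, but on day 3 Adipoq was highest in the untreated graft (969, 387 and 298), where Aldh1a3 was not. Their part in the values of Aldh1a3 was not tested.

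Rbp4, the retinol carrier, was high on 1 array. Its intensity was 121, 224 and 131 on day 1, 527, 222 and 139 on day 3, and 95.7, 110 and 139 on day 7. The untreated day 3 graft stood above the other 8 grafts and the days overlapped. The difference between days 7 and 1 was -0.38 ± 0.41 and was not called, nor was that between days 7 and 3, except without the arrays with the peptide added (-1.60, adjusted p = 0.0310). Fat cells are known to make Rbp4, and the same untreated day 3 graft had the highest values of Adipoq (969 against 177 to 635 in the other grafts) and Plin1 (531 against 108 to 238). The summed intensity of 9 adipocyte markers was 12542 there and 5411 to 9286 in the other grafts. The neutrophil marker sum was also highest there, at 25559 against 3358 to 17847. Their part in the Rbp4 value was not tested. Rbp7, another retinol binding protein, was also highest in this graft, at 997 against 556 to 630 in the other grafts of days 1 and 3.

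Stra6, the Rbp4 receptor, rose on the probe set kept by the rule (1385476_x_at). It was at 116, 154 and 153 on day 1, 159, 161 and 172 on day 3, and 211, 203 and 256 on day 7, and the 3 days did not overlap. The difference was 0.61 ± 0.11 between days 7 and 1 (adjusted p = 0.00145) and 0.41 ± 0.11 between days 7 and 3 (adjusted p = 0.0136), the latter not called without the arrays with the peptide added. In the array maker's naming, the suffix _x_at marks a probe set that can match other sequences. Of the other 4 probe sets of Stra6, 3 were too dim in heart to be tested, and 1381606_at lay between 135 and 189 in the grafts with no difference called (-0.08 ± 0.12 between days 7 and 1). Of the 3 dim ones, 1376962_at went from between 68.7 and 89.6 on days 1 and 3 to between 120.3 and 137.8 on day 7, and 1390525_a_at from between 21.0 and 35.9 to between 58.7 and 73.4, without overlap. The remaining one, 1385475_a_at, overlapped between the days. The probe sets thus disagreed, with the rise called on 1 of the 2 tested. The probe set kept by the rule was brighter in T cells (275 to 441). In the grafts 11 of 11 T cell markers rose between days 1 and 7 (median 3.06), beside 30.9% of all probe sets tested. Their part in the Stra6 value was not tested.

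Crabp2, the cytosolic carrier that hands retinoic acid to its receptor, was at 371, 423 and 478 on day 1, 602, 512 and 543 on day 3, and 548, 404 and 364 on day 7. The days overlapped, though the day 7 graft with the peptide added was the lowest of all 9, and the difference between days 7 and 1 was 0.03 ± 0.15. Without the untreated arrays it was lower on day 7 than on day 3 (-0.44, adjusted p = 0.00892).

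Of the receptors, Rarb and Rxra fell late. Rarb was at 946, 1064 and 1034 on day 1, 886, 1030 and 884 on day 3, and 536, 707 and 716 on day 7. The grafts of day 7 were all below those of days 1 and 3, which overlapped. The difference was -0.63 ± 0.08 between days 7 and 1 (adjusted p = 2.64e-04) and -0.51 ± 0.08 between days 7 and 3 (adjusted p = 0.00112). Rxra, the partner of several nuclear receptors, was at 222, 197 and 187 on day 1, 168, 202 and 188 on day 3, and 100, 140 and 158 on day 7. The difference was -0.57 ± 0.15 between days 7 and 1 (adjusted p = 0.00992) and -0.46 ± 0.15 between days 7 and 3 (adjusted p = 0.0296), and the second of these calls was lost when the cyclosporine grafts were left out. Rara, the most widely expressed receptor of the family, ranged only from 363 to 516 over the grafts. Its difference between days 7 and 1 was -0.24 ± 0.10 (adjusted p = 0.0585), and it passed with either form of quantile normalization tried, or with each array centred on its median (adjusted p from 0.0373 to 0.0454).

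In a bulk graft sample, fewer cells of a type and less RNA per cell cannot be told apart. Markers of several cell types also changed between days 1 and 7, where 30.9% of all probe sets tested were higher and 33.8% lower. All 9 endothelial markers fell (median -0.90), 6 of 11 cardiomyocyte markers fell and 1 rose (median -0.23), and 9 of 10 macrophage and monocyte markers rose (median 1.71), beside the 11 T cell markers. Of 5 dendritic cell markers 4 rose, and of 12 fibroblast and matrix markers 6 rose and 4 fell. Of 8 neutrophil markers 5 fell, of 8 smooth muscle and pericyte markers 3 fell and 1 rose, and of 8 adipocyte markers 1 rose and 1 fell. All 3 B cell markers tested rose, 1 of 4 erythroid markers rose, and 1 of 3 hepatocyte markers fell. Summed T cell marker intensity was 1704 to 2740 in the day 1 grafts and 21426 to 26234 on day 7, and the endothelial sum was 18410 to 20140 on day 1 and 9197 to 11309 on day 7. Their part in the changes of the 9 genes was not tested.

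**Figure D2:**
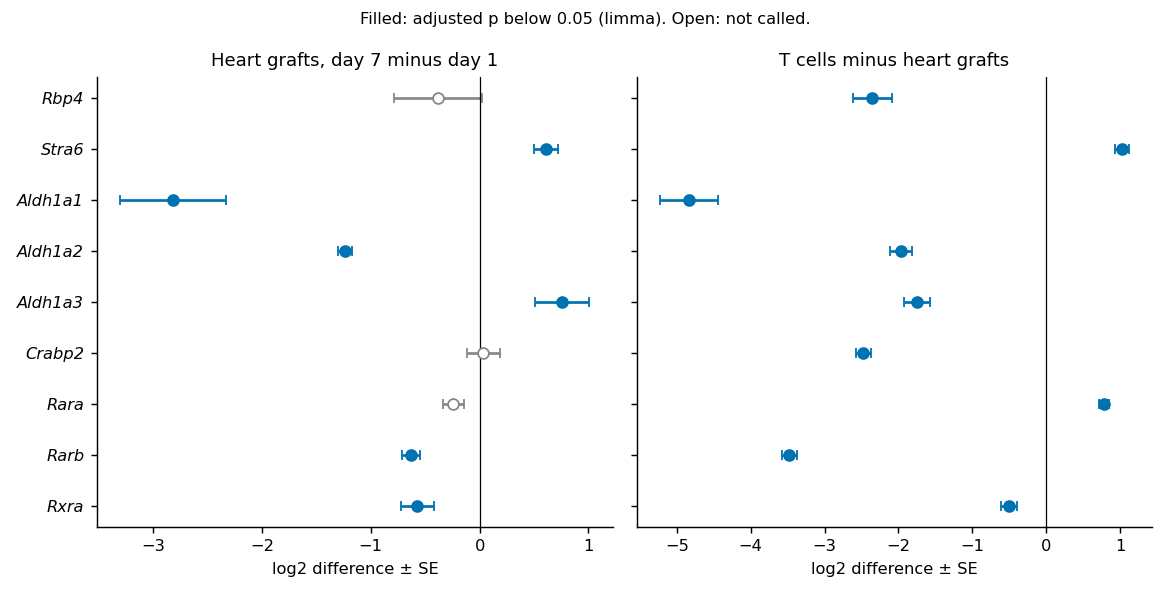
Log2 differences with SE from limma for each gene, in heart grafts between days 7 and 1 (left) and between T cells and heart grafts (right), with filled points for an adjusted p below 0.05. In the grafts Aldh1a1 (-2.81) and Aldh1a2 (-1.23) lie farthest below 0, and Stra6 (0.61) and Aldh1a3 (0.76) lie above it. On the right, all genes but Rara, Stra6 and Aldh1a2 entered the fit only through the heart arrays. Their filled points there were largely set by the filter.

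Genes whose course over the 9 grafts was most like that of a member were sought among 3768 genes that spanned at least 1 log2 unit there. The measure was Pearson's r of log2 values over 9 arrays that share their days and treatments, so it is a description. For Aldh1a1 these were Rnf144a (r = 0.987), the steroid dehydrogenase gene Akr1c14 (0.984) and Pgam2, the muscle form of phosphoglycerate mutase (0.983). All 3 were lowest in the untreated graft of day 7, as was Aldh1a1. They were picked for their likeness to Aldh1a1 on these same arrays, so this adds nothing to its treatment difference. Pgam2 was at 276 there, against 897 with cyclosporine and 1123 with the peptide added, and between 2806 and 4490 on days 1 and 3. Akr1c14 was at 264, 570 and 659 on day 7 and between 1060 and 1224 before. For Rxra the most alike were Rin1 (0.970), Aldh1a1 itself (0.969) and Plce1 (0.968), and for Rarb Eya1 (0.988) and the unnamed loci LOC100911508 (0.987) and LOC102551809 (0.986). For Aldh1a2 they were Ablim3 (0.994), Gstt2 (0.994) and Wdr45 (0.992), for Stra6 Adap1 (0.961), Ctsh (0.953) and Zdhhc23 (0.946), and for Aldh1a3 Atp6v1g2 (0.934), Stk32c (0.903) and Zfyve19 (0.885). Among the members, Aldh1a1 ran with Rxra, Rarb (0.958) and Aldh1a2 (0.885), and against Stra6 (-0.700) and Aldh1a3 (-0.592).

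The wider pathway was described through 5 lists with 80 further genes, of which 64 have a probe set and 47 were bright enough in heart to be tested. Between days 1 and 7, 12 of the 47 rose and 20 fell, with a median of -0.10 against -0.02 for all probe sets tested. Over all probe sets 30.9% were higher and 33.8% lower in this comparison (64.7% called), so the share called in the lists together was near the background, and the counts per list below are to be read against these shares. Of the enzymes that interconvert retinol and retinaldehyde, 7 of 10 fell and 0 rose (median -0.68). The largest were Akr1b10, a retinaldehyde reductase, at -1.40 ± 0.12, Dhrs7 at -1.07 ± 0.08, Dhrs3, which reduces retinaldehyde to retinol, at -0.93 ± 0.07 and Dhrs4 at -0.83 ± 0.06. Rdh10, the main retinol dehydrogenase of the embryo, was at -0.68 ± 0.09 and is named after its value was seen.

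Of the genes for uptake, storage and transport, 4 of 6 fell and 1 rose (median -0.44). Rbp7, an intracellular retinol binding protein of endothelium and fat, was at -2.10 ± 0.17. Lrat, which makes retinyl esters for storage, was at -0.98 ± 0.16, Lpl (lipoprotein lipase) at -0.60 ± 0.12 and Ttr (transthyretin, the plasma partner of Rbp4) at -0.28 ± 0.06. Scarb1, a scavenger receptor that takes up carotenoids, rose by 1.33 ± 0.17, with 0.90 of this reached by day 3. Of 4 tested genes for degradation and binding, Cyp26b1, a retinoic acid hydroxylase, fell by 0.48 ± 0.08, Cyp2s1 rose by 1.44 ± 0.11 and Fabp5, which can carry retinoic acid to another receptor, rose by 0.46 ± 0.10. Cyp26a1, the gene with the repeat shown above, lay between 73.6 and 109 in the grafts and was too dim to be tested.

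**Figure D3:**
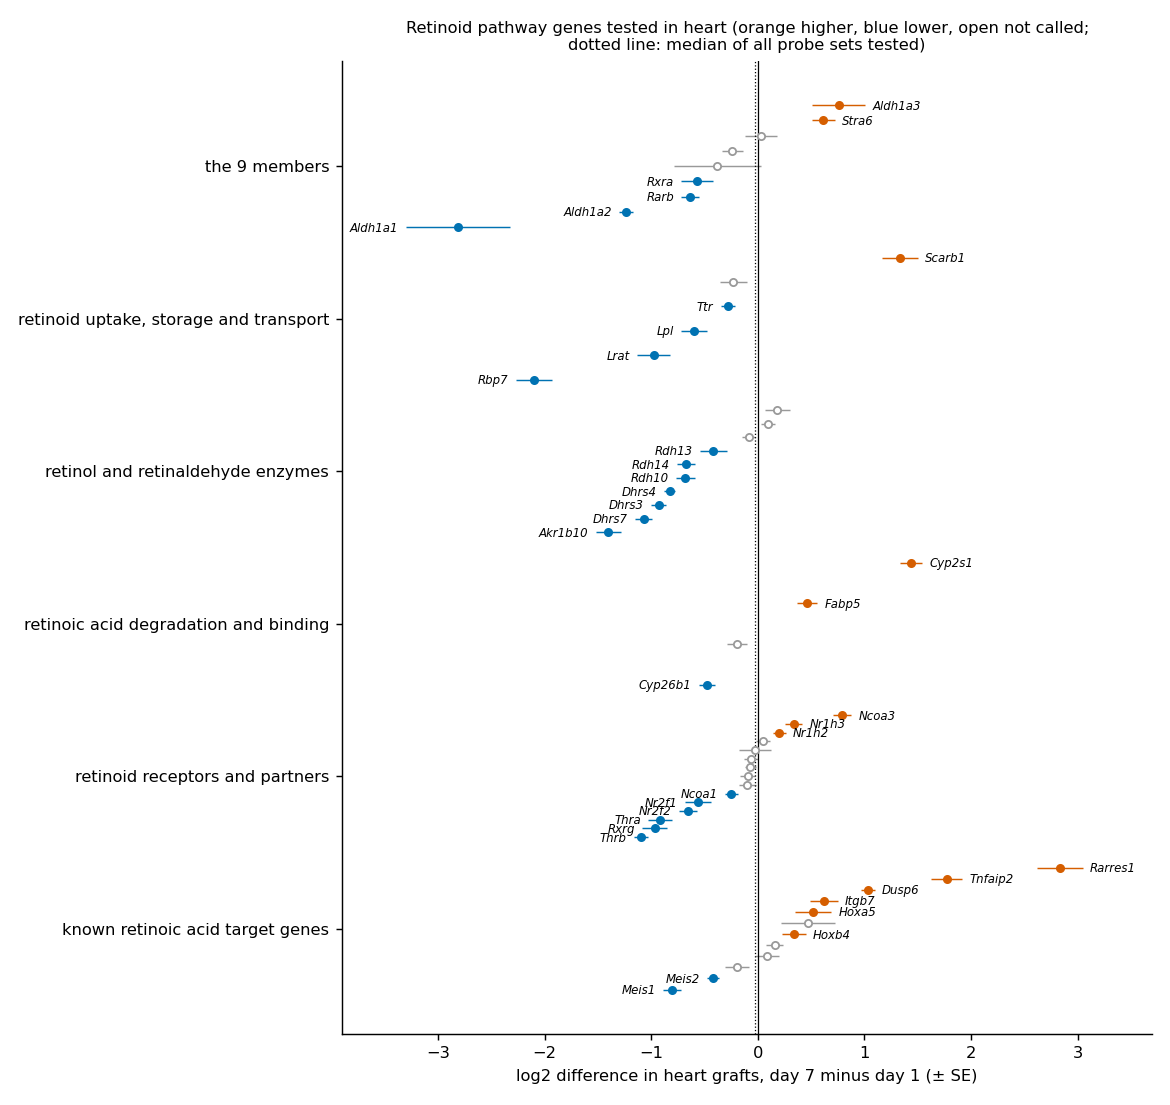
Log2 difference with SE between days 7 and 1 in heart grafts for the 9 members and the 47 tested genes of 5 retinoid pathway lists, orange where higher, blue where lower and open where not called. Of the retinol and retinaldehyde enzymes 7 of 10 lie below 0 as called values, and Rarres1 (2.83) lies highest.

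Of the receptors and partners, 6 of 15 fell and 3 rose (median -0.09). Rxrg, the retinoid X receptor of muscle, fell by 0.97 ± 0.12, the thyroid hormone receptors Thrb and Thra fell by 1.10 ± 0.06 and 0.91 ± 0.11, and Nr2f2, an orphan receptor of veins and atria, fell by 0.65 ± 0.08. The coactivator Ncoa3 rose by 0.79 ± 0.09, and the oxysterol receptors Nr1h3 and Nr1h2 rose by 0.34 ± 0.08 and 0.20 ± 0.06. Rarg and Rxrb, further subtypes of these receptors, were at -0.10 ± 0.08 and -0.07 ± 0.07 and were not called (they are named after their values were seen).

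Genes described as retinoic acid targets in other systems were mixed, with 6 of 12 higher and 2 lower (median 0.40). Rarres1, named for its response to retinoids, rose by 2.83 ± 0.22, from between 394 and 679 on day 1 to 1432 to 2098 on day 3 and 3077 to 4212 on day 7. Tnfaip2 rose by 1.77 ± 0.14, Dusp6, a phosphatase of the MAP kinase pathway, by 1.03 ± 0.06 and the integrin chain Itgb7 by 0.62 ± 0.13. The homeobox genes Meis1 and Meis2 fell by 0.80 ± 0.09 and 0.42 ± 0.06. Of the genes that rose, Rarres1, Itgb7 and Cyp2s1 were also higher in T cells than in grafts (by 1.18, 2.71 and 1.70), whereas Dusp6 was lower there and Tnfaip2 not called. Rarb, itself a target, fell over the same interval, as given above.

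The treatments were compared in the grafts against the untreated group and with each other. With limma, 0 of 19737 probe sets passed in any of the 3 comparisons (background 0%), the 9 genes included. An unadjusted p below 0.05 was found for 2288 probe sets with cyclosporine against no treatment, 3156 with the peptide added, and 954 between both treated groups. Each value is a mean of 3 same-day differences, and the first 2 comparisons share the untreated arrays. Rarb was at 0.26 ± 0.08 with cyclosporine (adjusted p = 0.330) and 0.18 ± 0.08 with the peptide added (adjusted p = 0.340). Aldh1a1 was at 0.76 ± 0.49 (adjusted p = 0.599) and 0.95 ± 0.49 (adjusted p = 0.377) in the same order. Aldh1a3 was at 0.69 ± 0.25 (adjusted p = 0.369) and 0.16 ± 0.25. Stra6 was at 0.11 ± 0.11 and 0.24 ± 0.11, Rxra at 0.17 ± 0.15 in both, and Aldh1a2 at -0.02 ± 0.07 and 0.09 ± 0.07. Between both treated groups, the values ran from -0.54 ± 0.25 for Aldh1a3 to 0.19 ± 0.49 for Aldh1a1.

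For Aldh1a1 the treatment differences were -0.08 and -0.10 on day 1, 0.17 and 0.16 on day 3, and 2.19 and 2.77 on day 7, given in the order cyclosporine and cyclosporine plus peptide. On day 7 the treated grafts held 4.94 and 7.45 times the untreated intensity, and 0 of 19737 probe sets had a higher value in either comparison. This difference was known when the genes were chosen, so its place among the probe sets was set in advance and is no support. A limma test of treatment differences that change with log2(day) called 0 probe sets, with 101, 100 and 20 at an unadjusted p below 0.05. It fitted straight lines on log2(day) with 3 residual degrees of freedom, so any bend in the day course counted as noise. It could therefore hardly call a change, and nothing is read from it. Rxra followed the same order on day 7 at 0.42 and 0.59, beside 95th percentiles of 0.42 and 0.45 over all probe sets tested. Rarb was at 0.39 and 0.41 on that day, within those percentiles. Crabp2 was lower in the treated grafts, at -0.43 and -0.57, below the 5th percentiles of -0.35 and -0.45. Rbp4 was at 0.18 and 0.48, the second above its 95th percentile. The other genes lay within the percentiles in both comparisons, with Aldh1a2 at -0.06 and 0.17, Aldh1a3 at 0.29 and -0.31, Stra6 at -0.05 and 0.26 and Rara at -0.10 and -0.02. Each of these is 1 array against 1 array, with the untreated array shared.

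**Figure D4:**
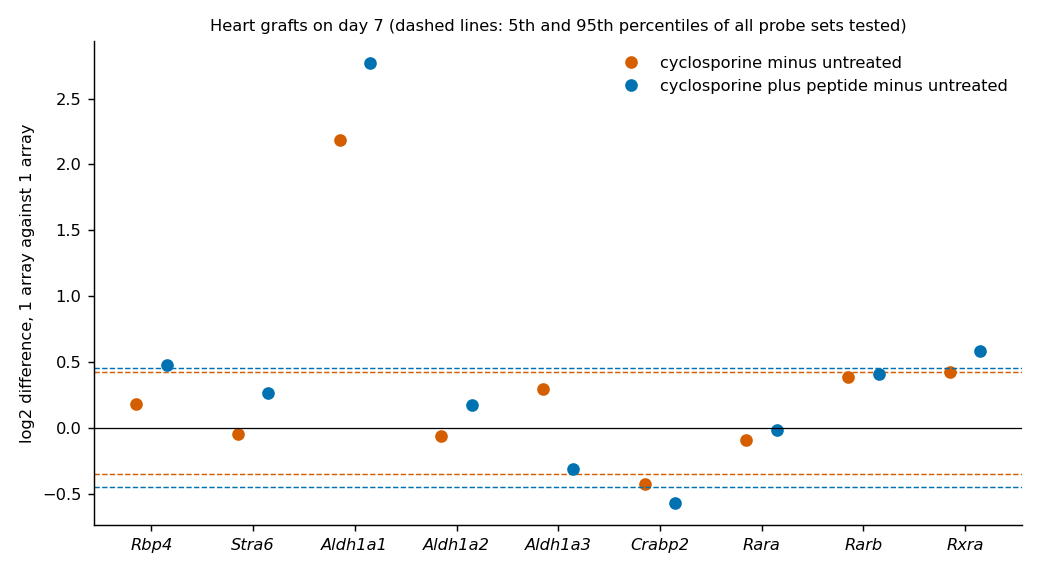
Log2 difference of each treated graft from the untreated graft on day 7, 1 array against 1 array, with dashed lines at the 5th and 95th percentiles of the 19737 probe sets tested (-0.35 and 0.42 for cyclosporine, -0.45 and 0.45 with the peptide added). Aldh1a1 lies at 2.19 and 2.77, and the other 8 genes lie between -0.57 and 0.59.

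In the T cells the pathway was mostly dim. Aldh1a1 ranged from 28.0 to 51.2 with a median of 43.2, Rarb from 49.6 to 73.0 (median 63.1), Crabp2 from 44.9 to 87.4 (median 72.4), Aldh1a3 from 29.5 to 79.9 (median 46.3) and Rbp4 from 5.5 to 36.7 (median 19.6). None of these 5 reached the 40th percentile of any T cell array, and Rxra, at 98.6 to 139, did so on 1 array. These 6 genes were therefore not tested within T cells. Rara was bright, at 628 to 828 (median 790), Stra6 lay at 275 to 441 (median 361) and Aldh1a2 at 135 to 217 (median 149).

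No day or treatment difference was called for the 3 genes tested in T cells. Between days 7 and 1, 0.575% of 19464 probe sets were called there with limma (0.437% higher, 0.139% lower). Between days 3 and 1 and between days 7 and 3, 0% were called, with 1615 and 1050 probe sets at an unadjusted p below 0.05. In the treatment comparisons 0% were called too, with 2216, 4636 and 857 at that unadjusted level. Stra6 was at 0.36 ± 0.11 between days 3 and 1 (adjusted p = 0.510) and at 0.13 ± 0.11 between days 7 and 1, and without the untreated day 1 array at 0.25 and 0.01. Aldh1a2 was at -0.05 ± 0.16 between days 7 and 1 (-0.09 without that array), and its highest T cell value, 217, was that of the day 7 sample with the peptide added, against 143 without treatment and 135 with cyclosporine. Rara was at -0.07 ± 0.10 between days 7 and 1, and at 0.04 without the same array, which also held its highest value of 828.

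T cells were compared with the grafts over all 18 arrays, with treatment and day as terms of the model. All 9 genes were called, 2 higher and 7 lower in T cells, beside 83.4% of the 22327 probe sets tested (47.9% higher, 35.5% lower). As 6 of them (all but Rara, Stra6 and Aldh1a2) were bright enough only through the heart arrays, they had to differ, and the count is no support for a difference of the pathway. Rara, the receptor through which T cells are known to respond to retinoic acid, was higher in T cells by 0.78 ± 0.07 (adjusted p = 1.81e-08), and its lowest T cell value of 628 lay above its highest graft value of 516. Stra6 was higher by 1.03 ± 0.09 (adjusted p = 3.93e-08), and its other 4 probe sets were higher too, by 0.29 to 2.02.

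The other genes were lower in T cells. The log2 difference, T cells minus grafts, was -4.83 ± 0.39 for Aldh1a1, -3.48 ± 0.10 for Rarb, -2.48 ± 0.10 for Crabp2 and -2.35 ± 0.26 for Rbp4. It was -1.97 ± 0.15 for Aldh1a2, -1.74 ± 0.18 for Aldh1a3 and -0.50 ± 0.11 for Rxra. For Aldh1a2 the T cell arrays (135 to 217) lay below the graft arrays (374 to 977). The other genes of this paragraph entered the fit only through the heart arrays. Any gap between their T cell and graft arrays was therefore largely set by the filter, and nothing is read from it. For Rxra the untreated day 7 graft (100) lay within the T cell range. Without the untreated day 1 T cell array, the differences of the 3 genes past the filter in both tissues were 0.78 for Rara, 1.04 for Stra6 and -1.91 for Aldh1a2. These were still called. The other values without that array were -4.83 for Aldh1a1, -3.49 for Rarb, -2.49 for Crabp2, -2.34 for Rbp4, -1.81 for Aldh1a3 and -0.51 for Rxra. Over all probe sets tested the median difference was 0.15 in favour of T cells.

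Whether the day differences were unlike in the 2 tissues was tested as an interaction. Between days 7 and 1, Aldh1a1, Aldh1a2, Rarb, Rxra and Stra6 were called, 5 of 9 beside a background of 46.7% (23.2% with the T cell difference higher, 23.5% lower). Between days 7 and 3, Aldh1a1, Aldh1a2, Rarb, Rbp4 and Stra6 were called, 5 of 9 beside a background of 31.9% (16.1% higher, 15.8% lower). These counts fell to 3 and 3 without the untreated arrays, and to 2 and 2 without the cyclosporine arrays. Without the arrays with the peptide added, 3 were called between days 7 and 1. Of the called genes, Aldh1a1, Rarb, Rxra and Rbp4 entered this fit only through the heart arrays, so their values largely restate the graft change and nothing is read from the counts. Aldh1a2 and Stra6 passed the filter in both tissues. Aldh1a2 was at 1.18 ± 0.17 between days 7 and 1 and 1.02 ± 0.17 between days 7 and 3. Both values of Aldh1a2 were called under all alternatives run. Stra6 was at -0.49 ± 0.16 and -0.64 ± 0.16 in the same order. In T cells Aldh1a2 lay near the filter, at the 41.5th to 51.6th percentile. Its day 7 against day 1 difference was -0.05 there and -1.23 in the grafts, so its interaction too largely restates the graft change. Without the untreated day 1 T cell array the values between days 7 and 1 were 1.146 for Aldh1a2 and -0.60 for Stra6, both still called. Between days 3 and 1, 0 of 9 were called beside a background of 8.81% (4.20% higher, 4.61% lower), where 6116 probe sets had an unadjusted p below 0.05 with limma. For the treatments 0 of 9 were called in each of the 3 comparisons, where limma called 0.00448%, 0.00448% and 0% of all probe sets and 2282, 4625 and 1145 had an unadjusted p below 0.05.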

How the data were processed

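The authors deposited 1 linear array intensity per probe set for 9 heart graft and 9 T cell samples, made from biotin-labelled cRNA per the labels' protocols. Its software and normalization: not given in the sources used here. The arrays had upper quartiles of 728 to 758. Of 31099 probe sets, 57 controls were left out. Of the rest 20826 have 1 gene symbol in the platform annotation, 436 several and 9780 none. Values below 0 (771 in all) were set to 0 and used as log2(intensity + 16), which understates changes of dim genes. Probe sets above the 40th percentile in at least 3 arrays of a fit entered limma (version 3.58.1, R 4.3.3, eBayes with trend), with Benjamini-Hochberg adjustment over all probe sets tested.

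Treatment and day were fitted within each tissue (4 residual degrees of freedom), tissue, treatment and day over all arrays (12), tissue interactions (8) and slopes on log2(day) in grafts (3). The labels do not say which samples share an animal, so p-values measure only how far these samples vary, and part of that may be technical. The 153 pairs of arrays shared at most 1 identical value. The fits were tested on simulated data with known changes. The noise there was drawn independently around the fitted model, so shared animals and effects outside the model are not covered. The genes, lists, naming rule and alternatives were chosen with earlier results of these data known. The rule names all members and, per list and direction, up to 4 called pathway genes by size (it was written per comparison and applied per list after values were seen), the 3 genes most alike to each called member, and a few defining markers. Promoter sequences are from RefSeq (GRCr8).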

Additional observations from a re-analysis of the deposited data

Results flagged for a closer look

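The day differences of 2 genes bright enough in both tissues were unlike in T cells and grafts, tested with limma as the T cell minus the graft difference. For Aldh1a2 it was 1.18 ± 0.17 between days 7 and 1 (adjusted p = 1.23e-04) and 1.02 ± 0.17 between days 7 and 3 (adjusted p = 6.42e-04). For Stra6 it was -0.49 ± 0.16 (adjusted p = 0.0236) and -0.64 ± 0.16 (adjusted p = 0.00850), on a probe set with which others of the gene disagreed. A positive value means that the difference was the higher one in T cells. Without the untreated day 1 T cell array the values between days 7 and 1 were 1.146 for Aldh1a2 and -0.60 for Stra6. In T cells Aldh1a2 lay near the filter, at the 41.5th to 51.6th percentile of its arrays. Its difference between days 7 and 1 was -0.05 there and -1.23 in the grafts, so its interaction largely restates the graft fall.

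A further 4 genes passed the same threshold but entered the fit only through the heart arrays, so their values largely restate the change in the grafts and are given without a p. These were Aldh1a1 at 2.83 between days 7 and 1 and 2.24 between days 7 and 3, Rarb at 0.60 and 0.57, Rxra at 0.62 between days 7 and 1, and Rbp4 at 1.53 between days 7 and 3. Without the untreated day 1 T cell array the values between days 7 and 1 were 3.07 for Aldh1a1, 0.62 for Rarb and 0.72 for Rxra. For Aldh1a1, Rarb and Rbp4 every T cell level lay below the 40th percentile of its array, and for Rxra all T cell levels but 1. The value of Rbp4 was 0.87 without the untreated arrays, which hold its single high graft, and 1.46 without the cyclosporine arrays.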

How the results depend on the processing

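With the filter at the 60th percentile, 3 members were called between days 7 and 1 and 3 between days 7 and 3 in the grafts (6 each in the main setting), since Stra6, Aldh1a3 and Rxra were then too dim to be tested. Leaving out 1 treatment gave 0 to 2 called members between days 3 and 1 in the grafts, where 1 was called over all treatments. For the interaction with tissue, leave-one-out counts were 2 to 6 between days 7 and 3 and 2 to 5 between days 7 and 1, where 5 each were called over all arrays. The leave-one-out without the untreated day 1 T cell array was added after seeing the data and gave the upper ends of both ranges. For the 60th percentile filter and the leave-one-out fits, the share of all probe sets called is not given. Nothing about the members is therefore read from these counts.

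Over all alternatives, 421 of the called values kept their call and 27 lost it, and none changed direction. Of values not called, 10 became called and 62 changed sign without being called. In the grafts, the falls of Aldh1a1, Aldh1a2 and Rarb between days 7 and 1 and between days 7 and 3 kept their call in all alternatives run, as did the fall of Rxra and the rise of Stra6 between days 7 and 1 wherever they were tested. Aldh1a3 lost its call between days 7 and 3 also with a pseudocount of 1, without the filter and without the trend. The interactions of Stra6 were not called with the mean over its probe sets (-0.17 between days 7 and 1). Those of Rxra and Stra6 between days 7 and 1 were lost without any 1 treatment. Genes near background in T cells limit what can be seen there.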
